A study of Mus musculus with 30 samples.

Results

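Chl1, L1cam, Nrcam, Nfasc, Ncam1, Ncam2, Cntn1, Cntn2 and Alcam encode cell-surface adhesion proteins of the immunoglobulin superfamily that are found on neurons and glia. All probe sets whose platform symbol is one of these names were followed over 30 Affymetrix mouse expression arrays, which gave 35 of the 45101 probe sets and 9 of the 18193 genes with a symbol of their own. The set was drawn up around Chl1, which was picked because its signal was much lower in cultures without Olig1/2. The difference between null and Olig-expressing cultures is therefore given as a description with no test, and tests were kept for the other comparisons.

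Of the 30 arrays, 22 held neurosphere cultures begun from the ganglionic eminence of E14.5 embryos and 8 held tissue of E18.5 embryos, all of a mixed Swiss and C57BL/6J background. Every neurosphere culture was Ink4a/Arf-/- and carried a retrovirus for EGFRvIII, an epidermal growth factor receptor that signals without ligand, introduced at the first passage and selected with puromycin. Untransduced cultures, meaning those with no further virus, were Olig1/2-/- (null, n = 6), Olig1/2+/- (heterozygous, n = 3) or Olig1/2+/+ (wild type, n = 3), and heterozygous and wild-type cultures together are called Olig-expressing. A second retrovirus, selected with blasticidin, gave null cultures with Olig2 (n = 3) or GFP (n = 3) and heterozygous cultures with Olig2 (n = 2) or GFP (n = 2). The virus arrays share line numbers with untransduced arrays (12, 13 and 14 among the null, 11 and 15 among the heterozygous cultures). The tissue arrays were null spinal cord, heterozygous spinal cord, null forebrain and heterozygous forebrain (n = 2 each, from 2 null and 2 heterozygous embryos). The tissue labels give an Olig2 genotype and the series design an Olig1/2 genotype. Cultures were harvested over a range of passages, and neither the passage of each array nor the promoter of each virus was known here.

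Chl1, L1cam, Nrcam and Nfasc make up the L1 family, transmembrane proteins that bind each other or other adhesion proteins outside the cell and ankyrin inside it. Ncam1 and Ncam2 encode neural cell adhesion molecules, of which the first carries polysialic acid in the developing brain. Contactins such as those of Cntn1 and Cntn2 are anchored to the outer membrane by a lipid, and Alcam encodes an adhesion protein that binds copies of itself and the lymphocyte receptor CD6. In the nervous system these proteins are known for axon growth and bundling, for cell migration and for the contact between axons and myelinating glia.

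Olig1 and Olig2 are basic helix-loop-helix factors, a class of proteins that binds the E-box CANNTG. The promoter windows of Chl1, the gene the set was built around, and of Cntn1, which was higher in null lines with Olig2 virus than with GFP virus, are shown here for that reason. The windows run from 250 bases before to 50 bases after a transcript start in RefSeq (GRCm38.p6, plus strand in each), and capitals mark CANNTG.
Chl1, chr6:103510626-103510925: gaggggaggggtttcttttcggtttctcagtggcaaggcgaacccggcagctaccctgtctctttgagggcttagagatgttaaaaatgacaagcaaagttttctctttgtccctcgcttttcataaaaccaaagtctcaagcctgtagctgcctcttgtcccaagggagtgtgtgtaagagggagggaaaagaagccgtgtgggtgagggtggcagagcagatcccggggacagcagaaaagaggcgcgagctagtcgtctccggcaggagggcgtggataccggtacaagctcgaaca
Cntn1, chr15:92050915-92051214: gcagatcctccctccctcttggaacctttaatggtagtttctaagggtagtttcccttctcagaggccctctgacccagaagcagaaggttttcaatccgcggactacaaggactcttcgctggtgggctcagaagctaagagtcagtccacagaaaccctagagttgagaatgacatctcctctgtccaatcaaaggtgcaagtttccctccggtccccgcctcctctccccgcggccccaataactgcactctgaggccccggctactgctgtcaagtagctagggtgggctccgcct
Cntn1, chr15:92127878-92128177: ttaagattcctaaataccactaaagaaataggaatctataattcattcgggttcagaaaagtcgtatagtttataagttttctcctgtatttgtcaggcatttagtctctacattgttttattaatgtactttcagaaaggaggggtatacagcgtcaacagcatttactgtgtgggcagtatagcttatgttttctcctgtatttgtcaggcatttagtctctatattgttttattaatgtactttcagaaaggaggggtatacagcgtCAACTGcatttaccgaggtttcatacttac
The Chl1 window and the upstream Cntn1 window held no CANNTG, and the downstream Cntn1 window held it as CAACTG, 20 bases after the start. The other Cntn1 window, not shown, held none. Of the 9 genes, 8 had windows in the RefSeq table, with 12 windows in all, and 8 of the 12 held CANNTG. That motif, which reads the same on both strands, was found in 72.3% of all 32851 windows of the same 300 bases. The form CAGCTG, read on both strands and contained in CANNTG, was found in 16.3% of windows, among them a Nfasc window, and CATCTG or its reverse complement CAGATG in 17.2%, among them both L1cam windows.

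Signals are MAS5 intensities, which the authors scaled to a trimmed mean of 500 on each array, and each gene was read from its probe set with the highest mean. Differences are on the scale of log2(signal + 16), which understates changes of dim genes. They were tested 2-sided with limma, with Benjamini-Hochberg adjustment over all genes tested, and a gene is called where its adjusted p was under 0.05. The arrays had median signals between 128.9 and 217.4, and arrays of a group correlated at 0.925 to 0.945. Olig1 was at 8068 ± 1018 in null cultures (SD, n = 6), against 22820 in heterozygous and 26610 in wild-type cultures, so its probe set kept signal in null cells. Over all 22 neurosphere arrays it ran from 5123.8 to 11630 in null and from 20360.5 to 30892.9 in Olig-expressing cultures, so the genotype labels were matched without overlap. Id4, which encodes an inhibitor of helix-loop-helix factors, was at 3032 ± 333 in null cultures, against 128 ± 68.4 in heterozygous and 158 ± 42.7 in wild-type cultures (SD, n = 3 each). The Olig2 probe set, at 8302 ± 2120 in null cultures, was not called between Olig2 and GFP virus in null lines (difference -0.53, SE 0.23, adjusted p 0.181), so it does not check the virus labels, while Id4 fell by 2.52 (adjusted p 0.00196). In spinal cord the Olig2 signal was 58.5 and 23.8 in null embryos, against 335.1 and 736 in heterozygous embryos. Neuron markers differed among themselves in the cultures: group means of Tubb3 lay between 35.05 and 154.1, against 8002 to 14120 in tissue, and those of Snap25 between 2.37 and 42.8, against 3796 to 8103 in tissue, while those of Map2 lay between 6709 and 8998, against 10580 to 13080 in tissue. Map2 thus makes up most of the summed neuron signal of the cultures. The GFP array of null line 13 stood apart from the other cultures, with a log2 ratio of the 3′ to the 5′ Gapdh probe set of 0.43, against -0.33 to -0.04 on the other 21 neurosphere arrays, and an A260/A280 ratio of 2.83.

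The 9 genes differed in where their signal was high. On the probe sets read, Chl1, L1cam, Nfasc, Ncam1, Cntn1 and Alcam lay higher on every tissue array than on every neurosphere array. That makes 6 of the 9 genes without overlap, where 22.1% of all genes had none. Other probe sets could differ: on Chl1 1417795_at tissue ran from 400.2 to 638.8, and a wild-type culture reached 1276. On Ncam1 1450437_a_at tissue ran from 729 to 1406.1 and a null culture reached 2970.1, while 1426865_a_at separated tissue from cultures. L1cam, the founding member of its family, ran from 9639.6 to 12220.5 in tissue and from 321.1 to 675.1 in the cultures. Nfasc, whose product neurofascin gathers sodium channels at the axon initial segment and the node, ran from 1602.7 to 2989.9 in tissue and from 78.8 to 180.5 in the cultures. Nrcam, Ncam2 and Cntn2 overlapped between tissue and cultures on the probe sets read. There Nrcam reached 3564.4 in a wild-type culture while its highest tissue signal was 2300. On Nrcam 1430583_at, however, every tissue array (1911.5 to 2397.8) lay above every culture (233.6 to 695.3). Cntn2 tissue started at 421.9 on 1435166_at and 452.3 on 1435165_at, where the cultures ended at 192 and 88.6. The remaining Nrcam and Cntn2 probe sets overlapped. In bulk RNA, fewer cells of a type and less RNA per cell cannot be told apart.

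**Figure D1:**
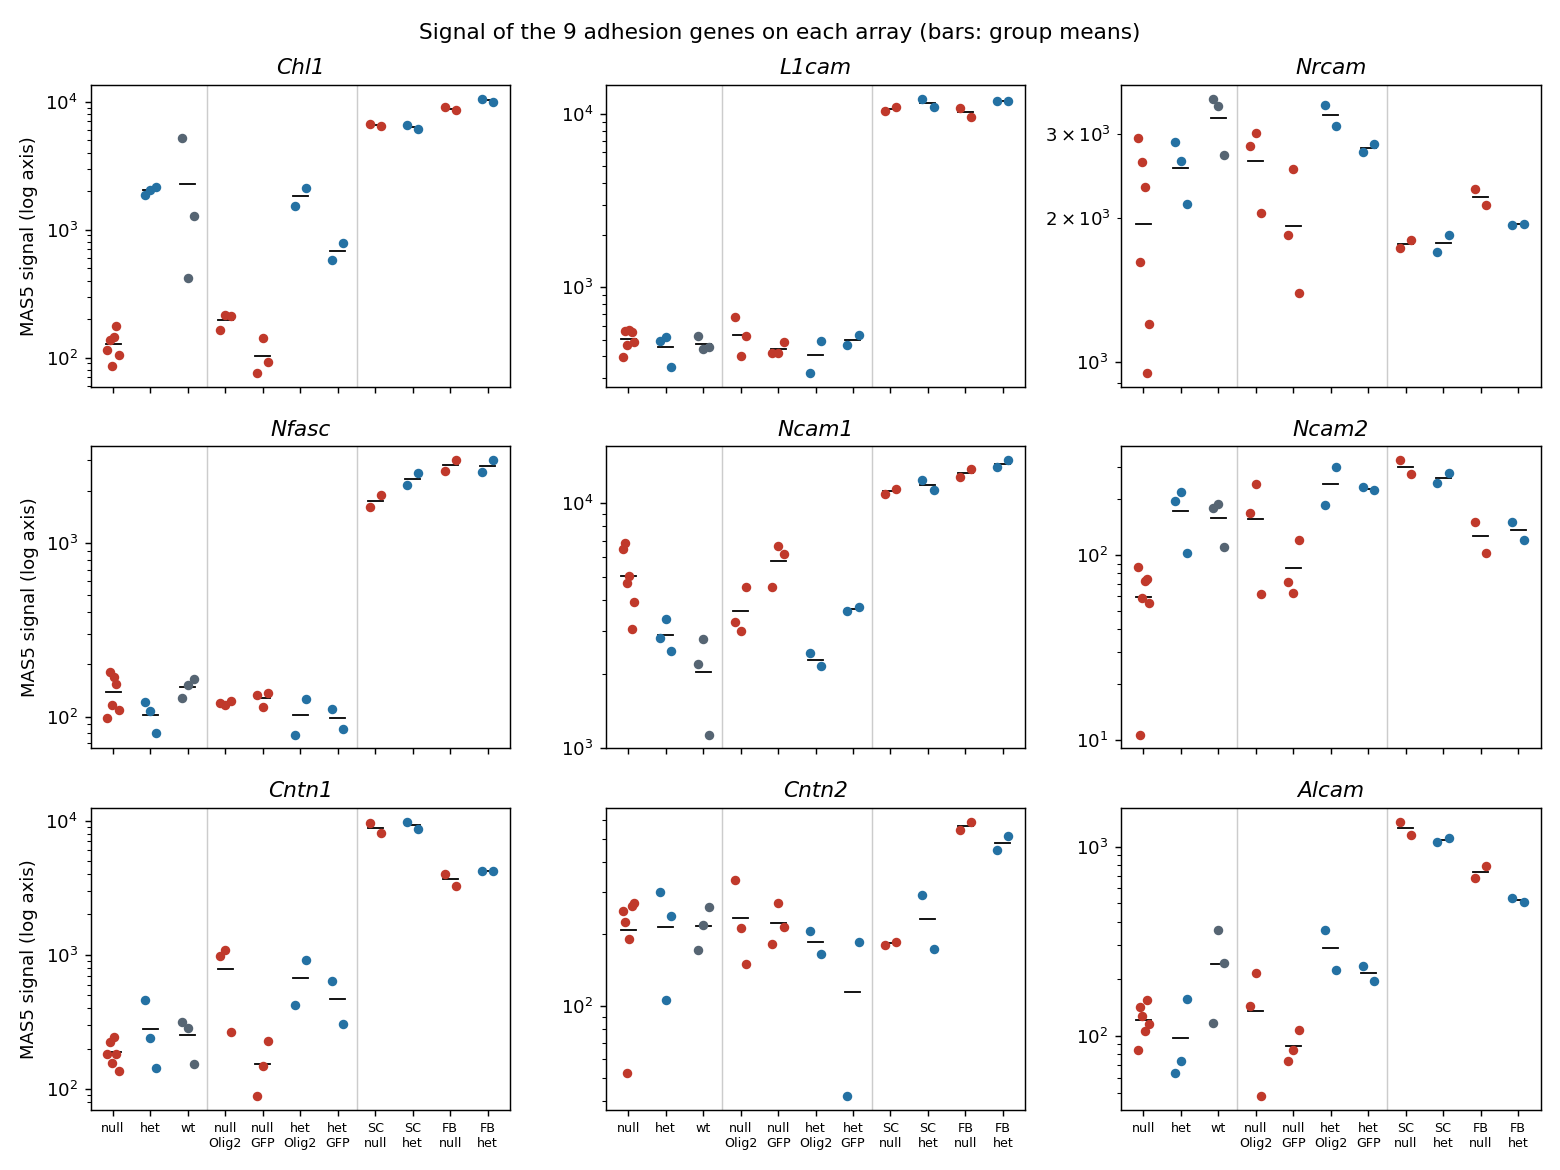
MAS5 signal (log axis) of the probe set read for each of the 9 genes on each of the 30 arrays, in 11 groups, with cultures left, cultures with Olig2 or GFP virus in the middle and E18.5 spinal cord (SC) and forebrain (FB) right. Points are arrays (red null, blue heterozygous, grey wild type) and bars group means. Chl1 is low in all 12 null cultures, while L1cam and Nfasc are low in all cultures and high in tissue.

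For Chl1 the order of the 11 groups was, from high to low and as mean log2(signal + 16), heterozygous forebrain (13.33), null forebrain (13.11), null spinal cord (12.69), heterozygous spinal cord (12.62), heterozygous cultures (10.99), heterozygous cultures with Olig2 (10.83), wild-type cultures (10.48), heterozygous cultures with GFP (9.43), null cultures with Olig2 (7.72), null cultures (7.13) and null cultures with GFP (6.86). Neighbours in this order overlapped between the spinal cord groups, among the heterozygous, heterozygous Olig2, wild-type and heterozygous GFP cultures, and among the null culture groups. The step between the heterozygous cultures with GFP and the null cultures with Olig2 was 1.71, and the ranges did not overlap. The wild-type cultures had the widest spread of the 11 groups, with an SD of 1.80. This order is that of the probe set read.

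The values that led to the choice of Chl1 came from the 12 untransduced cultures. In the 6 null cultures the Chl1 signal (probe set 1435190_at) was 85.9 at the lowest, 125.4 at the median and 177.3 at the highest, against 416.4, 1955 and 5166 in the 6 Olig-expressing cultures. No null culture reached the lowest Olig-expressing one. The heterozygous cultures had 1872.7, 2036.4 and 2166.2, and the wild-type cultures had 5166, 416.4 and 1286.2. The heterozygous values lay close together and inside the wide range of the wild-type values. The means were 127.5 ± 32.6 in null and 2157 ± 1609 in Olig-expressing cultures (SD, n = 6 each), with a log2 difference of -3.60 (SE 0.42). Chl1 lay below the array median on 5 of the 6 null arrays and on none of the Olig-expressing ones. Background may therefore limit the size of the difference, which was not tested.

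Markers of other cell types differed between these cultures too. Of 8 oligodendrocyte lineage genes tested, 2 were lower in null cultures, Cspg4 (-1.84, adjusted p 0.000119) and Bcas1 (-1.91, adjusted p 0.00102), and the list's summed signal was 4529 to 9889 in null, 5052 to 9117 in heterozygous and 4937 to 9642 in wild-type cultures. Of 8 astrocyte genes, 2 were higher, Sparcl1 (0.55) and Aldh1l1 (1.57), and 1 was lower, Gja1 (-1.77), while Gfap (2.19, adjusted p 0.0774) was not called. The summed astrocyte signal was 34642 to 64482 in null, 36320 to 41824 in heterozygous and 27698 to 31377 in wild-type cultures. Of 7 neuron genes, 1 was higher, Map2 (0.35, adjusted p 0.0446), and the summed neuron signal was 9618 to 12181 in null, 8461 to 8918 in heterozygous and 7296 to 10141 in wild-type cultures. The part of these markers in the differences of the 9 genes was not tested.

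The other Chl1 probe sets were read beside it. On 1417795_at the null cultures ran from 7.9 to 51.1 and the Olig-expressing cultures from 106.6 to 1276, again without overlap, and over 30 arrays this probe set correlated with 1435190_at at r = 0.92. On 1443713_at the groups overlapped, with medians of 3.35 in null and 79.65 in Olig-expressing cultures (r = 0.75 with 1435190_at). On 1447036_at the medians were 116.7 and 103.7 (r = 0.08), so this probe set did not follow the others.

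**Figure D2:**
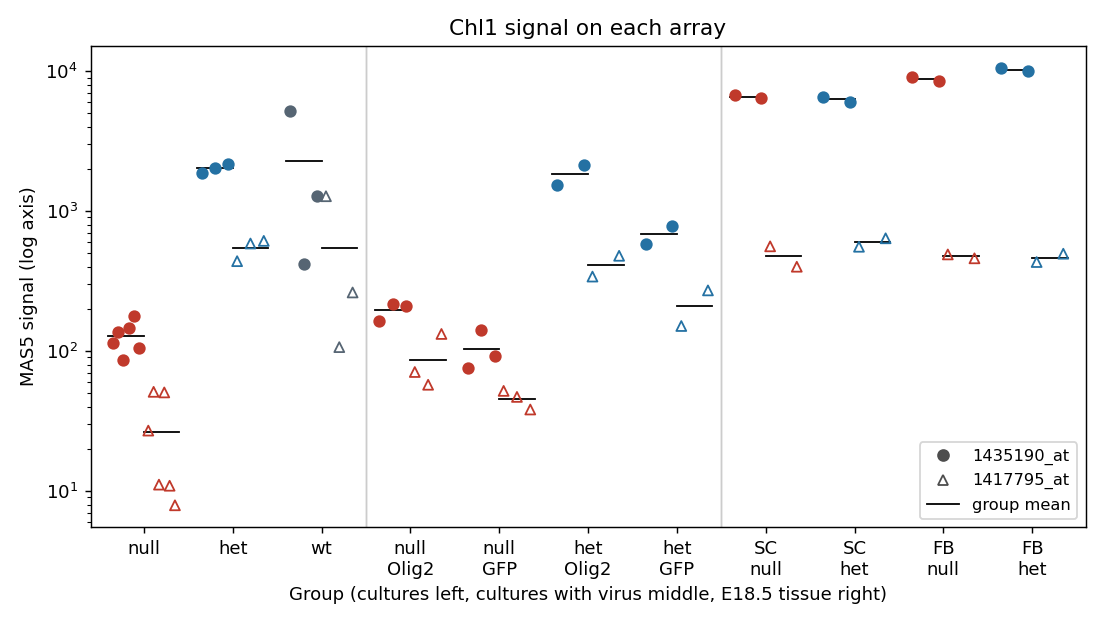
Chl1 MAS5 signal (log axis) on each array for the probe set read (1435190_at, filled circles) and a second one (1417795_at, open triangles), by group, with bars for group means; red is null, blue heterozygous and grey wild type. On 1435190_at the null cultures, with or without virus, lie between 75.8 and 216.8, below the lowest Olig-expressing culture at 416.4, and the tissue arrays start at 6061.1.

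Of the other L1 genes, Nrcam, which encodes a binding partner of contactins and ankyrin, was lower on average in null cultures, at 1942 ± 808 against 2897 ± 533 in Olig-expressing cultures (difference -0.67, SE 0.24), with overlap. L1cam was at 504.6 ± 68.6 in null and 462.4 ± 63.9 in Olig-expressing cultures, and the groups overlapped throughout. Nfasc, at 137.9 ± 34.3 in null and 125.2 ± 30.2 in Olig-expressing cultures, did not reach the minimum signal for a test here.

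Ncam1 and Ncam2 stood on opposite sides. Ncam1 was higher in null cultures, with 3064.7 at the lowest, 4864 at the median and 6847.9 at the highest, against 1135.5, 2626 and 3365.6 in Olig-expressing cultures (difference 1.04, SE 0.22). Only the null culture of line 21 fell inside the Olig-expressing range, and on a second probe set, 1426865_a_at, every null culture (2592.9 to 5196.4) lay above every Olig-expressing one (1047.1 to 2584.4). Ncam2 was lower in null cultures, with 10.7, 65.45 and 86.7 as lowest, median and highest, against 102.6, 184 and 218.1 in Olig-expressing cultures (difference -1.33, SE 0.38). The groups did not overlap, although the null signals lay below the array medians, and the other Ncam2 probe sets overlapped. Ncam2 and Alcam lie on chromosome 16, as do Olig1 and Olig2, but the Ncam2 end is 9.6 Mb and the Alcam end 38.77 Mb from the start of Olig2.

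The contactins and Alcam overlapped between null and Olig-expressing cultures. Cntn1 averaged 188.2 ± 40.8 in null and 267.2 ± 119 in Olig-expressing cultures, Cntn2 averaged 208.6 ± 81.8 and 215.8 ± 68.8, and Alcam averaged 121.2 ± 25.0 and 168.9 ± 115. Over the 35 probe sets, 3 lay lower in every null culture (1435190_at and 1417795_at of Chl1 and 1425301_at of Ncam2). Only 1 lay higher in every null culture (1426865_a_at of Ncam1), and 31 overlapped. For comparison, 2.70% of all probe sets with a symbol of their own did not overlap between these groups, and 8.32% of the genes tested were called (adjusted p under 0.05). These shares are given beside the counts only, as the set was chosen in this contrast.

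Between heterozygous and wild-type cultures 0 of the 7 genes tested were called by limma, as were 0.0333% of all genes, and 0 of the 7 had an unadjusted p under 0.05, where 6.65% of all genes had. Chl1 had 2025 ± 147 in heterozygous and 2290 ± 2529 in wild-type cultures (SD, n = 3 each), a difference of 0.51 with a 95% interval from -0.75 to 1.78. Ncam1 had 2882 ± 448 in heterozygous and 2032 ± 829 in wild-type cultures (difference 0.58, adjusted p 0.777). Without wild-type line 3 the Chl1 difference was -0.35, and without wild-type line 2 it was 1.44.

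The cultures with a second virus gave arrays on which Chl1 had not been picked, although their 5 lines were among those it was picked on. With Olig2 virus in both genotypes, Chl1 had 163, 216.8 and 209.4 in null lines 12, 13 and 14, against 1529.1 and 2127.4 in heterozygous lines 11 and 15. With GFP virus in both, it had 75.8, 141 and 92.5 in the null lines, against 580.2 and 783.1 in the heterozygous lines. In neither case did the genotypes overlap. Chl1 was lower in null lines with Olig2 virus (log2 difference -3.11, SE 0.28, adjusted p 0.0011) and with GFP virus (-2.57, SE 0.28, adjusted p 0.00113). Chl1 lay below the array median on 1 of the 3 null arrays with Olig2 and on 2 of the 3 with GFP. Background may therefore limit the size of these differences too. With Olig2 the summed astrocyte signal was 41342 to 61448 in null and 37849 to 38827 in heterozygous lines, and with GFP it was 35680 to 48248 in null and 35181 to 40748 in heterozygous lines. In both comparisons 0 of 8 astrocyte, 0 of 7 oligodendrocyte lineage and 0 of 7 neuron genes were called.

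With Olig2 virus, Chl1 was the only one of the 8 genes tested that was called, where 0.0241% of all genes were, namely Chl1, Ddit4l (-2.93), a stress-induced inhibitor of mTOR signalling, and Rad9a (2.17), a DNA damage checkpoint gene. With GFP virus it was again 1 of 8, where 1.70% of all genes were called. Of the 8 genes, 6 did not overlap between null and heterozygous lines with GFP, a case met by 33.8% of all genes in these small groups. On the probe set read, Ncam1 differed by 0.63 with either virus, higher in null lines (adjusted p 0.535 with Olig2 and 0.147 with GFP). Ncam2 (-1.32), Cntn1 (-1.50) and Alcam (-1.15) were lower in null lines with GFP at adjusted p values of 0.241, 0.244 and 0.32, so none of these 4 differences passed the test. The Ncam1 probe sets disagreed. On 1426865_a_at every null line was higher with either virus. On 1439556_at every null line was lower with GFP (447.4, 281.1 and 493.7, against 641.5 and 544.4), and the genotypes overlapped with Olig2. On 1450437_a_at and 1450438_at they overlapped with GFP.

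**Figure D3:**
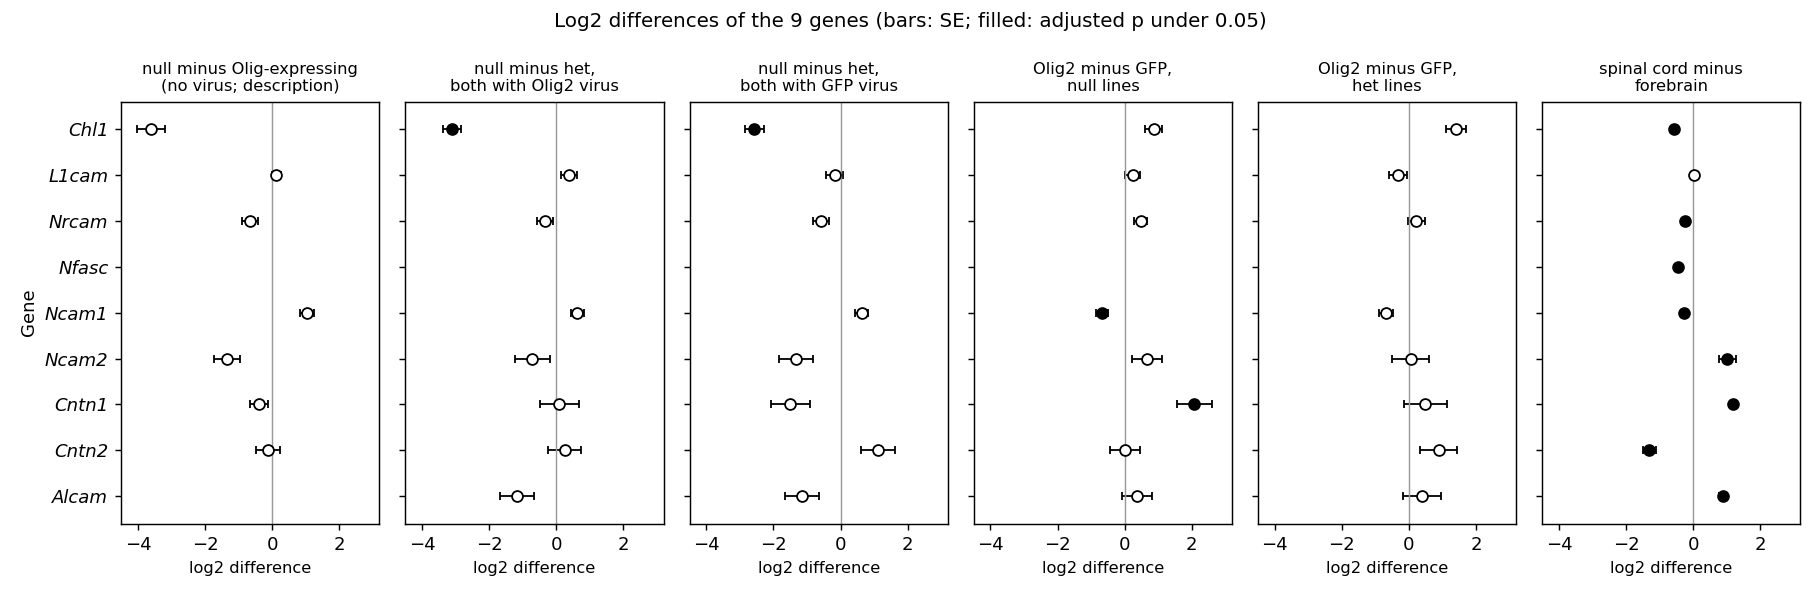
Log2 differences of the 9 genes in 6 comparisons, with standard errors as bars; filled points had an adjusted p under 0.05, and no point is drawn where a gene was not tested. The left panel, used in choosing Chl1, is a description with no test. Chl1 lies at -3.11 and -2.57 in the comparisons of null with heterozygous lines carrying the same virus, and spinal cord against forebrain has 8 filled points of 9.

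The virus comparison within null lines asks what restoring Olig2 does to cells that lack both factors. Of the 8 genes tested between Olig2 and GFP virus in null lines, Cntn1 rose and Ncam1 fell, that is 2 of 8, where 7.88% of all genes were called. Cntn1 and Chl1 did not overlap between the viruses, which was so for 28.6% of all genes in these groups of 3. Cntn1 encodes a contactin that takes part in axon-glia junctions and binds Notch and Nrcam. It had 985.4, 1089.1 and 266.3 with Olig2 in lines 12, 13 and 14, against 88.6, 147.3 and 227.2 with GFP. It was higher with Olig2 in each line and the groups did not overlap, but the gap was small in line 14. The difference was 2.08 (SE 0.52, adjusted p 0.0343), and a second probe set, 1452981_at, gave 574.3, 918 and 222.7 with Olig2, against 8.3, 148.6 and 74.7 with GFP (difference 2.83, adjusted p 0.0242 among all probe sets). The third, 1459197_at, gave 0.16 and was not called.

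The Cntn1 call rested on few arrays. The adjusted p was 0.0618 with the line as a block, and the call was also lost without the Olig2 array of line 12 (0.132) or 13 (0.119), without the GFP array of line 12 (0.0866) or 13 (0.0878), with no filter on low signal (0.0513), after quantile normalization (0.0643) and with the lines' arrays without a second virus in place of GFP, a setting chosen after the data were seen (1.75, adjusted p 0.0652). Cntn1 lies on chromosome 15, where the 498 genes tested had a median difference of 0.21, against 0.03 for all genes (of the 498, 31 rose and 11 fell, and of all 12458 genes, 404 rose and 578 fell). The deviation of chromosome 15 genes from the neurosphere median was 0.27, 0.24 and 0.16 with Olig2 in lines 12, 13 and 14, against 0.21, -0.12 and -0.07 with GFP. Cntn1 lay below the array median on 1 of the 3 GFP arrays. The part of chromosome 15 in the Cntn1 difference was not tested.

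Ncam1 had 3264.3, 3002 and 4536.6 with Olig2 in null lines 12, 13 and 14, against 4530, 6639.9 and 6196.8 with GFP. It was lower with Olig2 in each line, although the highest Olig2 value, 4536.6, overlapped the lowest GFP value, 4530. The difference was -0.69 (SE 0.18, adjusted p 0.0372, and 0.0329 with the line as a block). The probe sets disagreed: 1439556_at rose, with 1040.5, 705.4 and 1162.5 with Olig2, against 447.4, 281.1 and 493.7 with GFP (difference 1.23, adjusted p 0.017), and 1450437_a_at and 1450438_at differed by 0.43 and 0.61 without a call. On 1426865_a_at Ncam1 was lower with Olig2 in each line (2801.3, 2330.1 and 3352.5, against 3058.5, 3616.5 and 4803.2 with GFP), although the groups overlapped. Where these probes lie on the transcripts was not known here. The call on 1426864_a_at was also lost without the Olig2 array of line 12 (adjusted p 0.13) or 13 (0.129), the GFP array of line 13 (0.119) or 14 (0.101), or any heterozygous array (0.051 to 0.0588), with no filter (0.0506) and after quantile normalization (0.0862).

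Chl1 itself was higher with Olig2 in all 3 null lines (163 against 75.8, 216.8 against 141 and 209.4 against 92.5), without overlap. The difference of 0.86 (SE 0.25) had an adjusted p of 0.0586, which did not pass, and of 0.0405 with the line as a block, which did. It also passed without the GFP array of line 13, the one with the high Gapdh ratio (1.08, adjusted p 0.0376). Against the arrays of these null lines without a second virus the difference was 0.74, given with no test since Chl1 was picked on arrays that include these. With Olig2 virus the null lines averaged 196.4 ± 29.2, still below 580.2, the lower heterozygous value with GFP. The difference was thus no smaller without that array.

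Nrcam differed by 0.47 between Olig2 and GFP in null lines (adjusted p 0.179) on the probe set read, and its probe set 1458833_at rose, with 446.2, 281.5 and 252.9 with Olig2, against 96.3, 11.5 and 126.8 with GFP (difference 2.13, adjusted p 0.0284). Over all probe sets of the 9 genes, 5 of 22 tested were called, 4 higher and 1 lower with Olig2, where 7.98% of all probe sets were called. Ncam2 (0.66), L1cam (0.24), Alcam (0.36) and Cntn2 (0.01) had adjusted p values from 0.393 to 0.988. In the same lines the summed astrocyte signal was 41342 to 61448 with Olig2 and 35680 to 48248 with GFP, with 1 of 8 genes called (Aqp4, 2.17), and the summed oligodendrocyte lineage signal was 7146 to 9864 with Olig2 and 7906 to 10850 with GFP, with 0 of 7 called. The summed neuron signal was 9695 to 9746 with Olig2 and 10435 to 12397 with GFP, with 0 of 7 called, and the part of these lists in the differences was not tested.

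**Figure D4:**
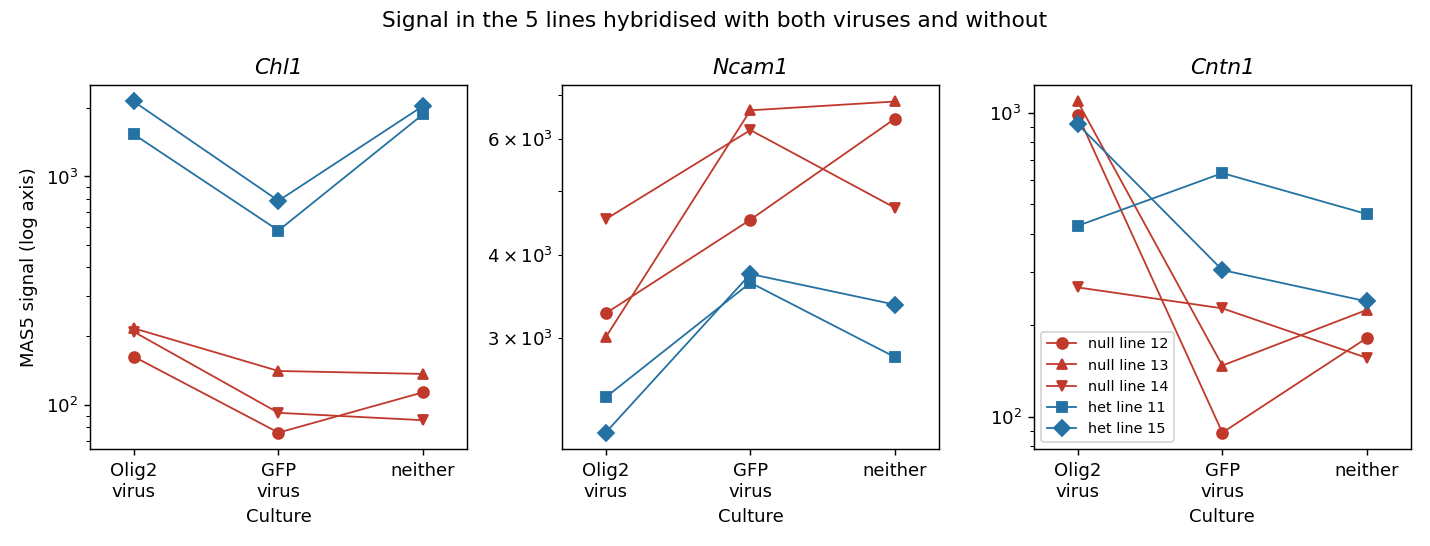
MAS5 signal (log axis) of Chl1, Ncam1 and Cntn1 in the 5 lines with arrays for Olig2 virus, GFP virus and neither; lines join the arrays of a line, red null and blue heterozygous. Chl1 is higher with Olig2 than with GFP in all 5 lines, Ncam1 lower in all 5, and Cntn1 higher in the 3 null lines and in heterozygous line 15.

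In heterozygous lines, which keep a working Olig1/2 copy, 0 of 8 genes were called between Olig2 and GFP virus by limma, as were 0% of all genes. At an unadjusted p under 0.05 there were 484 genes, or 3.89%, and 2 of the 8, Chl1 and Ncam1. Chl1 had 1529.1 and 2127.4 with Olig2 in lines 11 and 15, against 580.2 and 783.1 with GFP, without overlap (difference 1.40, SE 0.31, adjusted p 0.9999). The untransduced cultures of these lines had 1872.7 and 2036.4, and Chl1 was picked on arrays that include these, so they are given as a description only. Ncam1 had 2434.7 and 2151.6 with Olig2, against 3634.1 and 3746.3 with GFP (difference -0.69, adjusted p 0.9999).

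Whether the genotypes responded differently to Olig2 was tested as an interaction, and 0 of the 8 genes were called, where 0.0562% of all genes were, and 0 of the 8 had an unadjusted p under 0.05, where 10.7% of all genes had. For Chl1 the effect in null lines minus that in heterozygous lines was -0.54 (95% interval -1.41 to 0.33, adjusted p 0.637). For Cntn1 it was 1.58 (interval -0.22 to 3.39, adjusted p 0.517), and for Ncam1 -0.0017 (interval -0.61 to 0.61, adjusted p 0.9988).

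The GFP virus itself, set against no second virus in the same 5 lines, called 0 of 8 genes, where 0.0241% of all genes were called, and 1 of the 8 had an unadjusted p under 0.05, where 12.6% of all genes had. That gene was Chl1, with a difference of -0.82 (SE 0.20), but the arrays without a second virus are among those it was picked on, for high heterozygous and low null values, and nothing is read from its test. It had 580.2 and 783.1 with GFP in heterozygous lines 11 and 15, against 1872.7 and 2036.4 without. In null lines 12, 13 and 14 it had 75.8, 141 and 92.5 with GFP, against 113.8, 136.9 and 85.9 without. Both heterozygous values were lower with GFP, and the null values went either way.

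The tissue arrays ask whether embryos labelled null differ in the same transcripts. In forebrain 0 of the 9 genes were called between null and heterozygous embryos, where 0.0405% of all genes were, and 3 of the 9 had an unadjusted p under 0.05, where 6.34% of all genes had. Chl1 had 9104.2 and 8543.2 in null forebrain, against 10557.3 and 9945.3 in heterozygous forebrain (difference -0.22, SE 0.08, adjusted p 0.691, 95% interval -0.39 to -0.05). On its second probe set, 1417795_at, the genotypes overlapped, with 489.9 and 459.5 in null and 432.3 and 495.7 in heterozygous forebrain. Alcam, on the probe set read, had 683.2 and 791.8 in null forebrain, against 537.2 and 511.8 in heterozygous forebrain (difference 0.48, adjusted p 0.642). Its other probe sets did not show this. On 1437467_at (1277.9 and 1565.3, against 1569.4 and 1582.1) and 1437466_at (1454.3 and 1084, against 1518.3 and 1548.4) both null values were lower. On 1426301_at and 1443086_at the genotypes overlapped. The third of the 3 genes, L1cam, differed by -0.21 (adjusted p 0.713).

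In spinal cord 0 of the 9 genes were called between null and heterozygous embryos, where 0.130% of all genes were, and 1 of the 9 had an unadjusted p under 0.05, where 6.01% of all genes had. Chl1 had 6735.7 and 6408.7 in null spinal cord, against 6527.2 and 6061.1 in heterozygous spinal cord (difference 0.06, 95% interval -0.11 to 0.23). Nfasc, which gives rise to a glial form in oligodendrocytes, had 1602.7 and 1892.6 in null spinal cord, against 2145.3 and 2519.3 in heterozygous spinal cord (difference -0.41, adjusted p 0.555). Over the same arrays the summed oligodendrocyte lineage signal was 3655 to 3998 in null and 11733 to 13207 in heterozygous spinal cord, with 3 of 8 genes called lower (Gpr17, Mbp and Cnp). The summed motor neuron signal was 1424 to 1505 in null and 2351 to 2395 in heterozygous spinal cord. For neuron genes it was 91022 to 94123 in null and 102296 to 106808 in heterozygous spinal cord, with 1 of 12 called lower. Vascular and meningeal genes had 33387 to 33451 in null and 20323 to 25226 in heterozygous spinal cord, with 1 of 10 called higher. Microglial genes had 8015 to 8188 and 5588 to 6186, with 0 of 6 called. The part of these lists in the Nfasc difference was not tested. The interaction of genotype and tissue called 0 of 9 genes and 0% of all genes in limma, with 2 of the 9 and 5.71% of all genes (705) at an unadjusted p under 0.05. Those 2 were Chl1 (0.28) and Nfasc (-0.42), with the effect in spinal cord minus that in forebrain. The Chl1 value is that of 1435190_at. On 1417795_at the genotypes overlapped in forebrain and in spinal cord (559.6 and 400.2 in null, against 555.8 and 638.8 in heterozygous spinal cord).

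The regions themselves differed in most of the set. Between spinal cord and forebrain, genotypes pooled, 8 of the 9 genes were called, 3 higher and 5 lower in spinal cord, where 40.0% of all genes were called. The median difference over the 9 genes was -0.23, against -0.01 over all genes. Cntn1 rose most, with 9619.9 and 8139 in null and 9813 and 8638.7 in heterozygous spinal cord, against 4038.3 and 3263.6 in null and 4242.4 and 4234.8 in heterozygous forebrain (difference 1.20, SE 0.08, adjusted p 1.02e-06). The regions did not overlap, and the genotypes lay close together within each.

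Cntn2, whose product marks growing axons of early-born neurons, had 179.5 and 186.3 in null and 291.2 and 173.1 in heterozygous spinal cord, against 544.8 and 592.1 in null and 451.8 and 516.2 in heterozygous forebrain (difference -1.30, SE 0.19, adjusted p 0.000225). All 4 of its probe sets were called lower in spinal cord, with the largest difference on 1435165_at (-1.97). The contactins thus went in opposite directions between the regions.

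Among the L1 genes, Chl1 averaged 6433 ± 283 in spinal cord and 9538 ± 891 in forebrain (SD, n = 4 each; difference -0.56, SE 0.05, adjusted p 1.26e-05) on 1435190_at. On 1417795_at it ran from 400.2 to 638.8 in spinal cord and from 432.3 to 495.7 in forebrain, with a difference of 0.18 (adjusted p 0.359), so the fall was not seen there. Nfasc averaged 2040 ± 389 in spinal cord and 2786 ± 235 in forebrain (difference -0.46, adjusted p 0.00213), and all 3 of its probe sets were called lower. L1cam averaged 11120 ± 781 in spinal cord and 11030 ± 1046 in forebrain and was not called (difference 0.01, 95% interval -0.11 to 0.14), but its second probe set, 1421958_at, was lower in spinal cord (-0.80, adjusted p 0.000736). Nrcam was lower by 0.23 (-0.23, adjusted p 0.0257). That call was lost on leaving out null embryo 1 or heterozygous embryo 3 in either region, or heterozygous embryo 4 in forebrain (-0.23 to -0.20). On 1458833_at every spinal cord array (43.7 to 253.2) lay below every forebrain array (277.5 to 390.6). On 1430583_at the regions overlapped (1911.5 to 2397.8 in spinal cord and 1970.6 to 2276.4 in forebrain), as they did on 1443281_at.

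Ncam2 rose, with 326 and 275.3 in null and 245.7 and 278.3 in heterozygous spinal cord, against 151.7 and 103.2 in null and 150.5 and 121.3 in heterozygous forebrain (difference 1.02, SE 0.25, adjusted p 0.00693). Ncam1 fell by 0.27 (-0.27, adjusted p 0.00217) on 1426864_a_at, while 1426865_a_at gave -0.0056 and was not called. Alcam, known in the chick for its place on motor axons, averaged 1165 ± 131 in spinal cord and 631 ± 131 in forebrain (difference 0.88, SE 0.10, adjusted p 4.64e-05), and all 5 of its probe sets were called higher, with differences from 0.72 to 1.41. Over all probe sets of the 9 genes, 22 of 30 tested were called, 9 higher and 13 lower, where 39.9% of all probe sets were called.

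Markers of cell types and of RNA quality moved with the region as well. The summed astrocyte signal was 56724 to 66113 in null and 58638 to 58754 in heterozygous spinal cord, against 13096 to 13747 in null and 13330 to 14348 in heterozygous forebrain, with 8 of 8 genes higher. Of oligodendrocyte lineage genes 7 of 8 were higher, of vascular and meningeal genes 7 of 10, of microglial genes 6 of 6 and of ganglion and Schwann cell genes 3 of 4. Neuron genes were split, with 5 higher and 6 lower of 12. Their summed signal was 91022 to 94123 in null and 102296 to 106808 in heterozygous spinal cord, against 93000 to 96515 in forebrain. The log2 Gapdh ratio was 0.04 to 0.37 in spinal cord and -0.22 to -0.07 in forebrain. The part of any of these in the regional differences of the 9 genes was not tested.

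The partners of these proteins were read from lists drawn up with earlier results of these data known. Between Olig2 and GFP virus in null lines, 2 of 23 L1 partners were called, near the 7.88% of all genes, both lower: Tnc (-0.74, adjusted p 0.0189), an extracellular matrix glycoprotein that binds contactin 1, and Plxna2 (-1.28, adjusted p 0.0194), a semaphorin receptor subunit. The list's median was -0.02, against 0.03 over all genes. Of 11 NCAM partners, 1 was higher, the prion protein gene Prnp (0.91, adjusted p 0.0338), and 1 was lower, the spectrin gene Sptan1 (-0.43, adjusted p 0.047). Of 31 other immunoglobulin adhesion genes, 1 was higher and 4 were lower, among them the Slit receptor gene Robo1 (-1.55, adjusted p 0.00642) and Neo1 (-0.67, adjusted p 0.0236), which encodes a receptor for netrins, while Mcam, an adhesion gene of endothelium and melanoma, was higher (2.26, adjusted p 0.0294).

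Between null and heterozygous lines with GFP virus, where 1.70% of all genes were called, Tnc was the only one of the 23 L1 partners (1.40, adjusted p 0.0023), and Robo1 (1.63, adjusted p 0.0167) and Neo1 (0.88, adjusted p 0.0252) were the only ones of the other 31 adhesion genes, all higher in null lines. These comparisons share the null arrays with GFP virus, so their signs are tied. Of the 2 testable genes of the contactin and Caspr list, 0 were called in either comparison. Between Olig2 and GFP virus in null lines they were Cntn3 (-1.33, adjusted p 0.124) and Cntnap4 (0.14, adjusted p 0.82).

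Between spinal cord and forebrain, where 40.0% of all genes were called, 3 of 6 contactin and Caspr genes were, all higher in spinal cord: Cntnap2 (1.10), the Caspr2 gene whose product pairs with contactin 2, Cntnap5a (1.43) and Cntn6 (0.85). Cntn2 thus fell where Cntnap2 rose. Of 24 L1 partners 6 were higher and 8 lower, with the receptor phosphatase gene Ptprz1, a ligand of contactin 1, lower (-0.93) where Cntn1 was higher. Of 11 NCAM partners 3 were higher and 4 lower, with St8sia2, which encodes an enzyme that puts polysialic acid on NCAM, lower (-1.02) and Gfra1, a GDNF receptor that NCAM can team up with, higher (0.86). Of 34 other immunoglobulin adhesion genes 11 were higher and 7 lower, led by Islr2 (-2.47) and Thy1 (1.82). The medians of these 4 lists were 0.54, -0.14, -0.04 and 0.09, against -0.01 over all genes.

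The genes whose pattern was most like that of Chl1 over the 22 neurosphere arrays, by Pearson correlation of log2(signal + 16) among 12690 genes, were Car2 (r = 0.91), Masp1 (0.90), Idh3a (0.89), Olig1 (0.89) and Txn1 (0.88). Olig1 is part of the deleted locus, and all 22 arrays share the genotype groups, so the values describe a shared split by genotype. Car2, a carbonic anhydrase gene, averaged 1781 ± 494 in null and 4961 ± 1582 in Olig-expressing cultures (SD, n = 6 each). With the virus it averaged 1679 with Olig2 and 1440 with GFP in null lines, and 4138 with Olig2 and 3704 with GFP in heterozygous lines. Within the set, Ncam2 (r = 0.62) and Nrcam (0.53) followed Chl1 most, Cntn1 (0.30) and Alcam (0.28) less, and Ncam1 ran the other way (-0.74). L1cam (-0.16), Nfasc (-0.30) and Cntn2 (-0.06) were weakly related or unrelated to it.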

How the data were processed

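RNA of 22 neurosphere cultures and 8 tissues was measured on Affymetrix mouse 430 2.0 arrays. The deposited values are MAS5 intensities on a linear scale, per the submitters' processing notes, and the authors set the mean of each array, after trimming 2% at each end, to 500; the version of MAS5 was not known here. Of 45101 probe sets, 34958 have 1 gene symbol in the platform annotation, 932 several and 9211 none. The 9 genes were matched by symbol, and the members, gene lists and tests were chosen with earlier results of these data known. The text names every member, up to 4 called genes of each partner list, and the 5 genes most like Chl1.

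A gene's value is that of its probe set with the highest mean log2 signal over the 30 arrays. In 4 sets of arrays (12 untransduced cultures, 10 with a second virus, 10 with GFP or no second virus, and 8 tissues), a gene was tested if its signal reached the array median on at least the number of arrays in the set's smallest group, which left 12022, 12458, 12427 and 12342 genes. Of the 9 genes, 7, 8, 8 and 9 passed (Nfasc was left out of the culture sets and Alcam of the untransduced set). log2(signal + 16) was fitted with limma 3.58.1 (trended eBayes) in R 4.3.3, and p-values are limma's moderated ones, Benjamini-Hochberg adjusted over all genes tested. The fit was tested on simulated data. Figures used matplotlib 3.10.9 in Python 3.11.15. Labels do not say whether line numbers mark separate embryos, so p-values measure the spread between these cultures, and the small number of arrays limits precision. Arrays of the same line or embryo deviated together little (correlations from -0.1 to 0.13 over 14 pairs). The 14 pairs do not give 14 separate values. In groups of 2 arrays the deviations mirror each other, and lines 11 and 15, embryos 1 and 2, and embryos 3 and 4 had equal correlations. The titles give spinal cord and forebrain the same embryo numbers, and line or embryo was a block in an alternative. Other alternatives were pseudocounts of 1 and 64, no filter, quantile normalization, scaling to the 75th percentile, every probe set as a feature, and each array left out. Promoter windows are RefSeq's for GRCm38.p6.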

Additional observations from a re-analysis of the deposited data

Results flagged for a closer look

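In the 6 null cultures without a second virus, a Dixon test of the highest and lowest array was run for each of the 9 genes, and chance flags about 1 in 20 such groups. Ncam2 was at 10.7 in line 13, far below the other null cultures (gap over range 0.728, above the test's 95% critical value). Cntn2 was at 52.3 in line 14, also far below the others (0.775).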

How the results depend on the processing

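No called difference of the 9 genes changed sign under any setting run. The Chl1 differences between null and heterozygous lines with Olig2 or with GFP virus were called under all of them. The 2 member calls between Olig2 and GFP virus in null lines became 0 with no filter and after quantile normalization, and 1 (Ncam1) with arrays without a second virus as control, where 576 genes were called, against 982 with GFP as control. With the line as a replicate block, Cntn1 lost its call (2.08, adjusted p 0.0618) and Chl1 gained one (0.86, adjusted p 0.0405), and the block changed no other member call. Apart from where fewer arrays were used, the cause of these changes was not tested. Low signal over background may limit Chl1 in null cultures, and Ncam2, Cntn1, Cntn2, Nfasc and Alcam in the cultures.

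With every probe set as a feature, where more features were tested, calls numbered 1624 between null and Olig-expressing cultures (1000 genes otherwise), 2 between heterozygous and wild-type cultures (4), 1787 between Olig2 and GFP in null lines (982), 11 for the interaction of Olig2 and genotype (7), 329 between null and heterozygous lines with GFP (212), 9 with Olig2 (3), 1 for the interaction of genotype and tissue (0) and 8640 between spinal cord and forebrain (4939). With a pseudocount of 64, the Chl1 difference between null and Olig-expressing cultures was -3.23, and the interactions had 17 and 1 calls. Heterozygous against wild-type cultures had 0 calls with no filter and 1 with scaling to the 75th percentile, and null against heterozygous forebrain had 3 with no filter (5 otherwise). GFP against no second virus had 5 calls after quantile normalization and 0 with the replicate block (3 otherwise), and the interaction of Olig2 and genotype had 4 with the block.

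Differences that were not called changed sign as follows. After quantile normalization, Cntn2 between Olig2 and GFP in null lines was -0.25 (-0.10 with scaling to the 75th percentile), Ncam1 in the interaction of Olig2 and genotype 0.16, L1cam between GFP and no second virus 0.0062, Nrcam between null and heterozygous spinal cord 0.0023 and Ncam1 in the interaction of genotype and tissue -0.028. With arrays without a second virus as control, Chl1 in heterozygous lines was -0.11, on arrays among those it was picked on.

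Leaving out 1 array at a time gave -4.03 to -3.14 for Chl1 between null and Olig-expressing cultures. Calls ranged from 0 to 8 between heterozygous and wild-type cultures, 298 to 1171 between Olig2 and GFP in null lines (0 to 2 members), 0 to 4 in heterozygous lines, 1 to 34 for the interaction, 41 to 304 between null and heterozygous lines with GFP, 2 to 7 with Olig2, 0 to 5 between GFP and no second virus, 2 to 10 by genotype in forebrain, 2 to 17 in spinal cord and 0 to 2 for the interaction of genotype and tissue. Between heterozygous and wild-type cultures, Chl1 ranged from -0.35 to 1.44, L1cam from -0.19 to 0.089, Ncam2 from -0.15 to 0.38, Cntn1 from -0.35 to 0.44 and Cntn2 from -0.39 to 0.30. Between Olig2 and GFP, Cntn2 ranged from -0.27 to 0.27 and Alcam from -0.033 to 0.89 in null lines, and Ncam2 from -0.26 to 0.37, Cntn1 from -0.049 to 1.03 and Cntn2 from -0.017 to 1.79 in heterozygous lines. In the interaction of Olig2 and genotype, Ncam1 ranged from -0.18 to 0.12, Cntn2 from -1.77 to 0.030 and Alcam from -0.42 to 0.50. Between null and heterozygous lines with Olig2, Cntn1 ranged from -0.46 to 0.71 and Cntn2 from -0.036 to 0.51. Between GFP and no second virus, L1cam ranged from -0.12 to 0.0067, Cntn1 from -0.23 to 0.28 and Cntn2 from -0.62 to 0.28. By genotype, Nfasc ranged from -0.10 to 0.11 and Ncam2 from -0.34 to 0.15 in forebrain, and Nrcam from -0.058 to 0.056, Cntn1 from -0.18 to 0.063 and Cntn2 from -0.63 to 0.073 in spinal cord. Ncam1 ranged from -0.030 to 0.11 in the interaction of genotype and tissue, and L1cam from -0.026 to 0.056 between spinal cord and forebrain.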
